A study of Mus musculus with 10 samples.

Results

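The peroxisome is a small organelle bounded by a single membrane that shortens very long and branched fatty acids, makes ether lipids and breaks down the hydrogen peroxide that its own oxidases release. Its proteins are made in the cytosol: peroxins of the Pex family recognise them, dock them at the membrane, pull them inside and recycle the receptors, and other peroxins build and divide the organelle. In the kidney, peroxisomes are most abundant in the cells of the proximal tubule, and several genes of peroxisomal β-oxidation are classical targets of the nuclear receptor PPARα.

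The genes described here are 38 of the 54532 genes in the deposited table, taken by gene symbol from a list of 13 peroxins and 25 peroxisomal enzymes, so that the machinery that builds the organelle can be compared with the enzymes that work in it. All 38 were among the 16505 genes that passed the filter on low counts and were tested. Acot12, an acetyl-CoA thioesterase mostly described as cytosolic, was listed with the enzymes and was kept there.

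The kidneys came from wild-type (WT) male C57BL/6 mice whose left ureter was tied at 8 weeks of age (unilateral ureteral obstruction, UUO) and which were sacrificed on day 14. Every kidney was obstructed, so that the data hold no healthy kidney. The 5 control mice received PBS, and 5 mice received dimethyl malonate (DMM), an inhibitor of succinate dehydrogenase, at 40 mg/kg by intraperitoneal injection every other day. RNA of the whole kidney gave a single library per mouse, with a total count between 15722527 and 19475833. Values in each kidney are given as CPM, the count scaled to a common library size by TMM, which compares a gene between kidneys, and levels are compared between genes only as FPKM, which also divides by gene length.

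Some libraries stood apart. Control 3 and DMM 1 had a weight of 0 when the group means that the authors deposited were written as weighted sums of the counts, while the other 8 libraries had weights between 0.227 and 0.271. The paper's methods name 5 replicates for its own test, which these weights do not match, and no reason was given in the sources used here. Fold changes and tests are therefore given over all 10 libraries and again over those 8. Control 3 had the highest control CPM for 35 of the 38 genes, and DMM 1 had the lowest DMM CPM for 15 of them, so that leaving out both tends by itself to widen the difference between the groups. The p-values over the 8 libraries take no account of that choice.

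DMM 4 stood apart in another way. In this library 20029 genes had a count above 0, against 22898 or more in each of the others, its TMM factor was 0.852 against 0.981 or more, and 5.62% of its counts came from the mitochondrial genome, against at most 4.39% elsewhere. Its highest correlation of log2 CPM with any other library was 0.921, whereas each of the others reached at least 0.982. Among the 38 genes it was below all of DMM 2, 3 and 5 in 31 and above all of them in 5. Calls, counts of calls and class means that rest on it are also given over 7 libraries, without control 3, DMM 1 and DMM 4. The group means of the authors keep DMM 4, at a weight of 0.257. Its omission was chosen with earlier results known, and by itself tends to raise the DMM mean of most of these genes and narrow its spread. The p-values over the 7 libraries take no account of that choice.

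The comparison asked whether DMM treatment of obstructed kidneys moved the peroxins, the enzymes or both. Over all 10 libraries, none of the 38 genes passed the test, and none of all tested genes did (0% called higher and 0% called lower by the quasi-likelihood test of edgeR, where a call needs a Benjamini-Hochberg adjusted p below 0.05 and a change of more than 1.5-fold). The smallest adjusted p of any gene in that test was 0.378. DESeq2 on the same libraries called 0 of the 38 genes, and 14 genes higher (0.0882% of those it gave an adjusted p) and 36 lower (0.227%) among all. With the p left unadjusted and the same thresholds, 3 of the 38 genes were higher, against 1.91% of all tested genes, and 0 were lower, against 4.11%. The 3 were the enzymes Acot4, Acot12 and Nudt19. In bulk tissue, fewer cells of a type and less RNA per cell cannot be told apart, and this holds for every difference given here.

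The direction was less mixed than in the genome as a whole. Log2 fold changes, DMM over control, were above 0 for 11 of 13 peroxins and 24 of 25 enzymes over the 10 libraries, against 52.8% of all tested genes, and for 13 peroxins and 24 enzymes over the 8 libraries, against 52.4%. The classes differed in size. The median log2 fold change was 0.10 for the peroxins, between -0.06 and 0.30, and 0.41 for the enzymes, between -0.14 and 1.15, while the median of all tested genes was 0.02. Over the 8 libraries the medians were 0.23 for the peroxins, 0.78 for the enzymes and 0.02 for all tested genes. With no regard to p, an increase above 1.5-fold was seen in 8 enzymes and 0 peroxins over the 10 libraries, against 4.93% of all tested genes, and in 17 enzymes and 0 peroxins over the 8, against 9.87%. Over the 7 libraries it was seen in 18 enzymes and in the 2 peroxins Pex7 and Pex11a, against 9.06%.

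**Figure D1:**
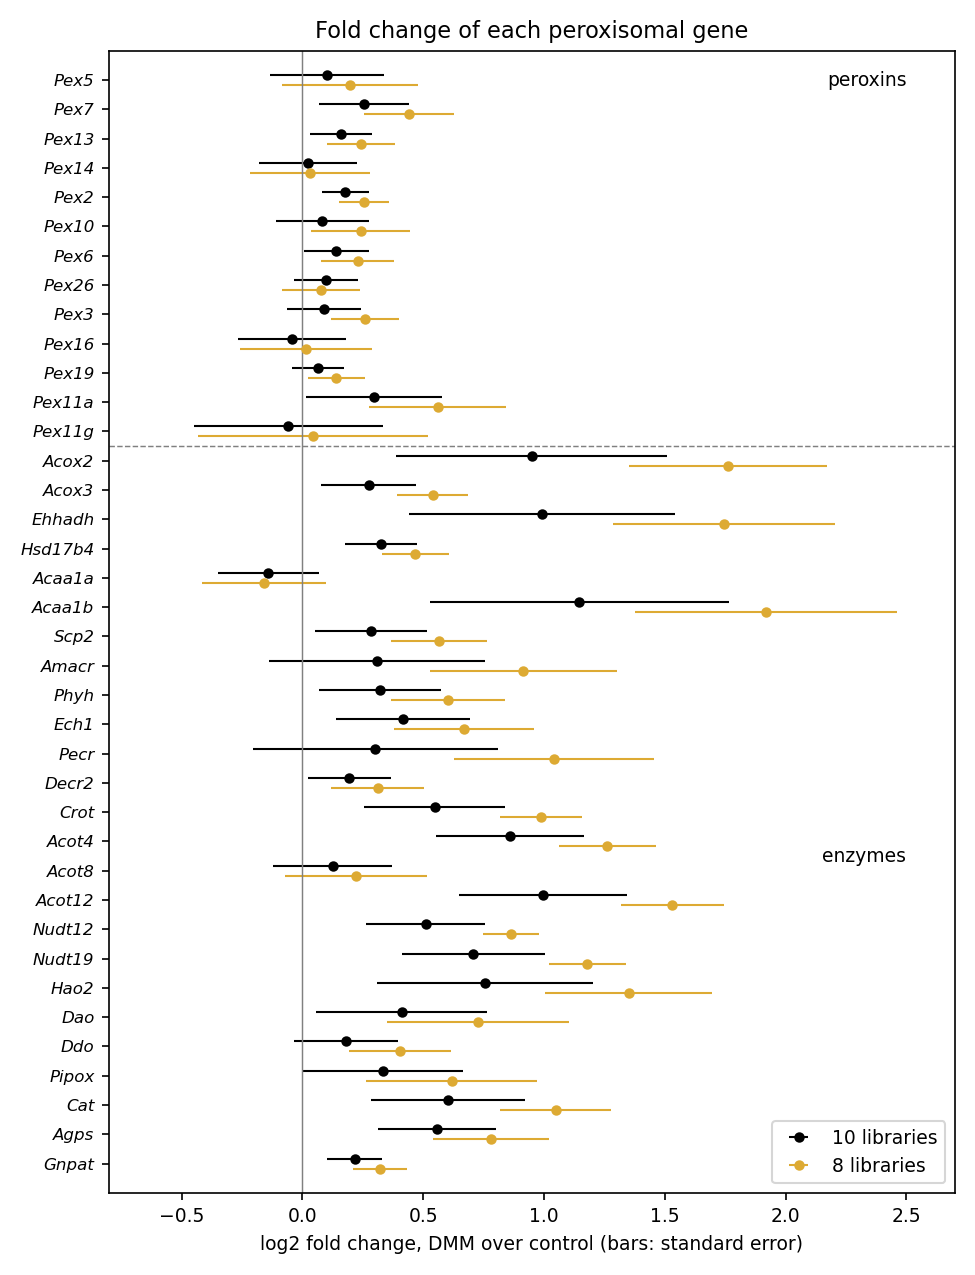
DMM over control as a log2 fold change for the 13 peroxins (above the dashed line) and the 25 enzymes, ordered by role, over 10 libraries (black) and over 8 libraries (yellow), with bars of 1 standard error. The peroxins lie between -0.06 and 0.30 over 10 libraries, the enzymes between -0.14 and 1.15, with Acaa1b the farthest to the right.

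The mean log2 CPM of each class was computed in each kidney and set against the mean of the 5 controls. For the enzymes it was -0.02, -0.01, 0.74, -0.57 and -0.14 in controls 1 to 5, and -0.19, 0.64, 0.81, -0.02 and 1.04 in DMM 1 to 5. Control 3 thus lay among DMM 2, 3 and 5, and DMM 1 and DMM 4 lay among the other controls, so that the groups overlapped. The enzyme mean was higher by 0.46 in DMM kidneys, with an SD of 0.47 between control and 0.54 between DMM kidneys, over the 8 libraries by 0.80, with SDs of 0.26 and 0.46, and over the 7 by 1.02, with SDs of 0.26 and 0.20.

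For the peroxins the class mean was -0.04, -0.08, 0.24, -0.12 and -0.005 in controls 1 to 5, and -0.06, 0.17, 0.34, -0.47 and 0.33 in DMM 1 to 5. The same kidneys were high as for the enzymes, over a narrower range, and DMM 4 was the lowest of all 10. The groups differed by 0.06, less than the SD of 0.14 between control and 0.34 between DMM kidneys, and by 0.15 over the 8 libraries, with SDs of 0.05 and 0.38. Without DMM 4 alone the difference was 0.20, and over the 7 libraries it was 0.34, larger than the SDs of 0.05 and 0.10. Over the 10 libraries the sign of the difference rested on single kidneys and on the scaling, since it was -0.01 without DMM 3, -0.004 without DMM 5 and -0.02 when scaled by library size alone.

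The enzyme mean minus the peroxin mean, taken within each kidney, compares the classes largely apart from the scaling of the library. Relative to the control mean it was 0.02, 0.07, 0.50, -0.45 and -0.14 in controls 1 to 5, and -0.14, 0.47, 0.47, 0.45 and 0.71 in DMM 1 to 5. Here DMM 4 lay with DMM 2 and 3. Unlike in those kidneys, its enzyme mean lay near the control mean, and its peroxin mean was the lowest of all. DMM 2 to 5 were above controls 1, 2, 4 and 5, control 3 was above DMM 2, 3 and 4, and DMM 1 lay among the low controls. The difference between the groups was 0.39, with an SD of 0.35 between control and 0.31 between DMM kidneys, and it was 0.65 over the 8 libraries and 0.68 over the 7. A score over chosen genes was given no p-value.

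**Figure D2:**
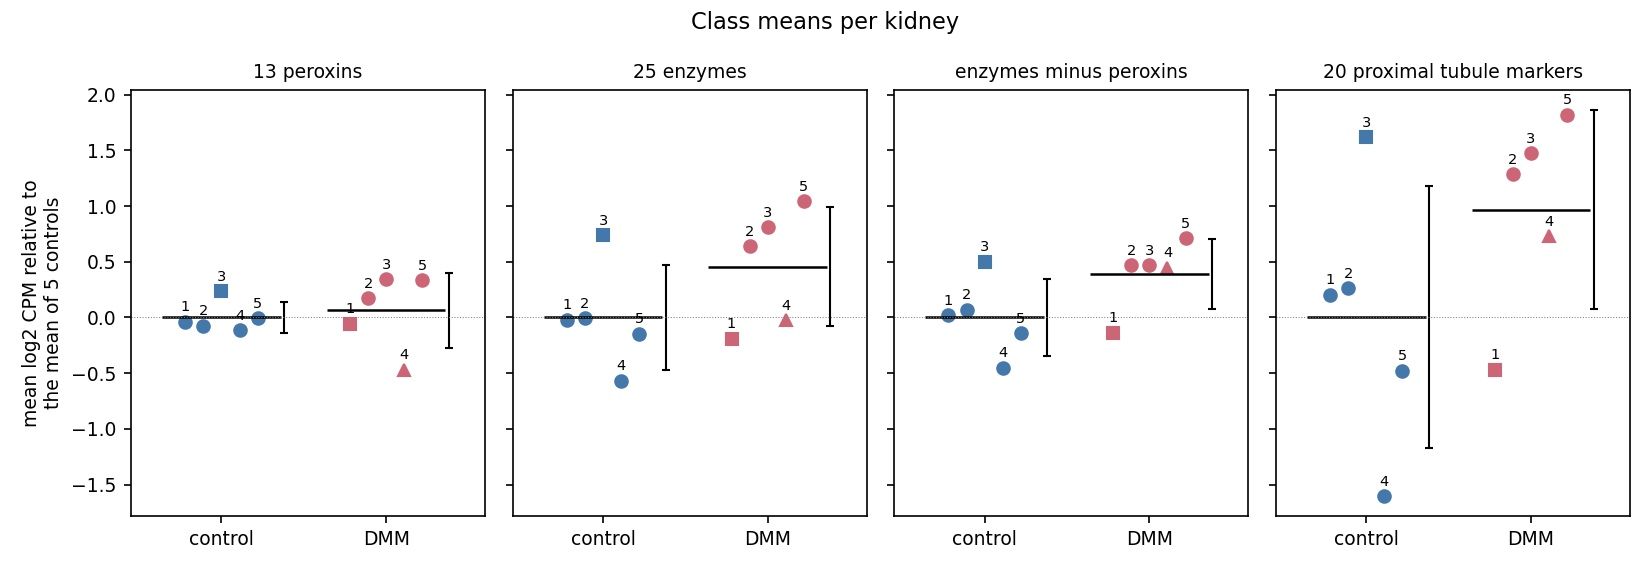
Mean log2 CPM of the 13 peroxins, the 25 enzymes, their difference, and 20 proximal tubule markers in each kidney, relative to the mean of the 5 controls, with the replicate number above each point. Horizontal lines are group means, bars are SDs over 5 kidneys, squares are control 3 and DMM 1, and the triangle is DMM 4. DMM 4 is lowest in the peroxins (-0.47), near the control mean in the enzymes (-0.02) and close to DMM 2 and 3 in their difference (0.45).

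Without control 3 and DMM 1, 8 of the 38 genes were called higher, against 2.73% of all tested genes, and 0 were called lower, against 3.56%. All 8 were enzymes: Nudt19, Nudt12, Acot12, Acot4, Crot, Cat, Acox2 and Hao2. Every DMM kidney was above every control for 13 of the 38 genes in this set, 1 peroxin and 12 enzymes, against 9.40% of all tested genes. Over all 10 libraries it was 0 of the 38, against 0.794%. Leaving out control 3 alone called 0 of the 38, and 0% of all tested genes in either direction. Leaving out DMM 1 alone also called 0 of the 38, against 0.298% of all tested genes higher and 2.60% lower, so that the 8 calls need both omissions. When DMM 4 was left out as well, 20 genes were called higher, against 6.71% of all tested genes, and 0 lower, against 7.61%. Of these 20 genes, 18 were enzymes and 2 were the peroxins Pex7 and Pex11a, and the groups did not overlap for 34 of the 38 genes, against 19.0%.

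The first step of import is the recognition of targeting signals, by Pex5 for the signal at the C terminus that most matrix proteins carry and by Pex7 for the rarer signal near the N terminus. Pex7 was at 30.1, 29.1, 42.2, 25.1 and 31.4 CPM in controls 1 to 5 and at 31.4, 36.7, 47.5, 26.8 and 46.2 CPM in DMM 1 to 5. DMM 3 and 5 were the highest, DMM 4 was lower than all controls except control 4, and the groups overlapped. Its log2 fold change was 0.26 (standard error 0.19) over 10 libraries and 0.44 (0.19) over 8, with adjusted p values of 0.589 and 0.211 from edgeR's quasi-likelihood test. Over the 7 libraries without DMM 4 it was called, at 0.59 (adjusted p = 0.00457, edgeR). For Pex5 the log2 fold change was 0.10 over 10 libraries and 0.20 over 8, with DMM 4 at 30.9 CPM below every other kidney. Over the 7 libraries it was 0.44 (adjusted p = 0.00218, edgeR), with every DMM kidney above every control, but under the fold threshold.

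Loaded receptors dock at Pex13 and Pex14, are marked with ubiquitin by a RING ligase that includes Pex2 and Pex10, and are drawn out of the membrane with the help of the ATPase Pex6, which Pex26 anchors. Pex2 had the highest median level of the listed peroxins, 23.2 FPKM. Its CPM was 50.2, 44.3, 56.3, 47.5 and 50.6 in controls 1 to 5 and 51.7, 54.9, 53.9, 63.6 and 57.3 in DMM 1 to 5. Control 3 was within the DMM range and the other controls were below all DMM kidneys, which made Pex2 the only peroxin whose groups did not overlap over the 8 libraries. The difference was small, at 0.18 on the log2 scale (standard error 0.10, adjusted p = 0.519 by edgeR's quasi-likelihood test) over 10 libraries and 0.25 (0.10, adjusted p = 0.194) over 8. Over the 7 libraries it was 0.20 (adjusted p = 0.0485, edgeR), without overlap of the groups but under the fold threshold. The log2 fold changes over 10 libraries were 0.16 for Pex13, 0.02 for Pex14, 0.08 for Pex10, 0.14 for Pex6 and 0.10 for Pex26. Over 8 libraries they were 0.24, 0.03, 0.24, 0.23 and 0.08 in the same order and over 7 libraries 0.11, 0.25, 0.37, 0.36 and 0.22, and none of the 5 was called over 10, 8 or 7 libraries.

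Pex3, Pex16 and Pex19 insert the proteins of the peroxisomal membrane, and the Pex11 family elongates the organelle before it divides. The 3 membrane genes had log2 fold changes of 0.09, -0.04 and 0.06 over 10 libraries and 0.26, 0.02 and 0.14 over 8, so that Pex16 changed sign between the sets. They were 0.26, 0.24 and 0.23 over the 7 libraries, where none of them was called. Pex11a, the Pex11 gene known as inducible by PPARα, was at 20.2, 21.5, 32.4, 16.6 and 28.6 CPM in controls 1 to 5 and at 18.5, 31.1, 39.2, 16.7 and 41.0 CPM in DMM 1 to 5. DMM 3 and 5 were above all controls, and DMM 1 and 4 were near the lowest. Its log2 fold change, the highest of the 13 peroxins, was 0.30 (standard error 0.28, adjusted p = 0.679 by edgeR's quasi-likelihood test) over 10 libraries and 0.56 (0.28, adjusted p = 0.299) over 8. Without DMM 4 as well it was called, at 0.78 (adjusted p = 0.00990 by edgeR). Pex11g, with counts as low as 18 in DMM 4, had a log2 fold change of -0.06 over 10 libraries, 0.04 over 8 and 0.38 over 7, where the groups did not overlap and it was not called.

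The largest group of enzymes, 12 genes, takes fatty acids through β-oxidation and α-oxidation. Its median log2 fold change was 0.31 over 10 libraries and 0.64 over 8, and it held both the highest and the lowest log2 fold change of the enzymes in either set. Acox2, the oxidase that opens the oxidation of branched-chain fatty acids and bile acid precursors, was at 19.1, 16.7, 47.3, 6.97 and 12.2 CPM in controls 1 to 5 and at 10.9, 37.7, 59.0, 21.1 and 68.5 CPM in DMM 1 to 5. Control 3 lay between DMM 2 and 3, and DMM 1 was below all controls except control 4. For Acox2, log2 fold changes were 0.95 (standard error 0.56, adjusted p = 0.536 by edgeR's quasi-likelihood test) over 10 libraries and 1.76 (0.41, adjusted p = 0.0360) over 8.

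Ehhadh encodes the bifunctional enzyme that hydrates and dehydrogenates straight-chain intermediates and is a long-known PPARα target. It was at 96.6, 104.8, 271.6, 41.3 and 87.7 CPM in controls 1 to 5 and at 88.3, 203.7, 303.0, 105.6 and 495.5 CPM in DMM 1 to 5. DMM 5 was the highest of all kidneys, and DMM 4 exceeded control 2 by less than 1 CPM. Over 10 libraries its log2 fold change was 0.99 (standard error 0.55), and over 8 it was 1.74 (0.46), with adjusted p values of 0.524 and 0.0551 by edgeR's quasi-likelihood test, so that Ehhadh missed the threshold in both. It was called over the 7 libraries without DMM 4, at 2.02 (adjusted p = 0.00311, edgeR). The other bifunctional enzyme gene, Hsd17b4, which serves branched chains and very long chains, varied less, from 129.2 to 232.5 CPM, with log2 fold changes of 0.32 and 0.47. On the FPKM scale Ehhadh was below Hsd17b4 in controls 1, 2, 4 and 5 and in DMM 1 and 4, and above it in control 3 and in DMM 2, 3 and 5.

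The thiolases Acaa1a and Acaa1b catalyse the same closing step of each cycle and had different values. Acaa1b was at 30.8, 30.4, 85.1, 16.5 and 27.4 CPM in controls 1 to 5 and at 23.2, 74.2, 131.1, 20.5 and 171.4 CPM in DMM 1 to 5. Its values spread more than 10-fold, with control 3 above DMM 2 and with DMM 1 and 4 among the low controls. Acaa1b had the highest log2 fold change of the 38 genes, 1.15 (standard error 0.62, adjusted p = 0.513 by edgeR's quasi-likelihood test) over 10 libraries and 1.92 (0.54, adjusted p = 0.0690) over 8. Over the 7 libraries it was called, at 2.26 (adjusted p = 0.000869, edgeR). Acaa1a stayed between 109.1 and 114.7 CPM in the controls, and between 103.9 and 121.2 CPM in DMM 1, 2, 3 and 5, while DMM 4 was at 48.2 CPM. Its log2 fold change was -0.14 over 10 libraries, -0.16 over 8 and 0.07 over 7, so that its sign rested on DMM 4. The pair share sequence: 35.6% of the stretches of 50 bases in Acaa1b and 15.6% of those in Acaa1a also occur in the other gene, and how the counting divided such reads is uncertain.

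The remaining genes of fatty acid oxidation lay between these. Log2 fold changes over 10 and 8 libraries were 0.28 and 0.54 for the pristanoyl-CoA oxidase Acox3, 0.28 and 0.57 for the thiolase and sterol carrier Scp2, 0.31 and 0.91 for the racemase Amacr, and 0.32 and 0.60 for the α-oxidation enzyme Phyh. They were 0.42 and 0.67 for the dienoyl-CoA isomerase Ech1, 0.30 and 1.04 for the enoyl-CoA reductase Pecr, and 0.19 and 0.31 for the dienoyl-CoA reductase Decr2. None of these 7 was called by edgeR over 10 libraries, or over 8 without the correction for GC content and length given below, and over the 7 libraries without DMM 4 all but Decr2 (0.47) were, at log2 fold changes from 0.61 for Acox3 to 1.33 for Pecr and adjusted p values of at most 0.00590 by edgeR. Scp2 shares 41.4% of its stretches of 50 bases with the pseudogene Scp2-ps2.

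Of the 38 genes, those with the lowest p-values belonged to a smaller group of 6, which move acyl groups on and off coenzyme A or cleave coenzyme A and pyridine nucleotides. The median log2 fold change of this group was 0.63 over 10 libraries and 1.08 over 8, and 5 of the 8 calls were in it. Acot12 was at 25.1, 31.9, 61.3, 15.8 and 27.3 CPM in controls 1 to 5 and at 32.1, 68.8, 70.3, 62.4 and 87.8 CPM in DMM 1 to 5. DMM 2 to 5 were above all controls, control 3 was just under the lowest of them, and DMM 1 was just above control 2. DMM kidneys were higher by 0.99 on the log2 scale (standard error 0.35, unadjusted p = 0.0154, adjusted p = 0.387 by edgeR's quasi-likelihood test) over 10 libraries and 1.53 (0.21, adjusted p = 0.00507) over 8.

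Acot4 encodes a peroxisomal thioesterase that in the mouse acts on succinyl-CoA and dicarboxylic acyl-CoAs. It was at 21.6, 19.2, 33.1, 12.6 and 19.1 CPM in controls 1 to 5 and at 17.3, 35.7, 36.8, 52.9 and 48.6 CPM in DMM 1 to 5. DMM 4 was the highest of all kidneys here, DMM 2 to 5 were above all controls, and DMM 1 was below all controls except control 4. The log2 fold change was 0.86 (standard error 0.31, unadjusted p = 0.0171, adjusted p = 0.388 by edgeR's quasi-likelihood test) over 10 libraries and 1.26 (0.20, adjusted p = 0.00913) over 8. Acot8, the thioesterase of broad chain length, had log2 fold changes of 0.12 and 0.22, and of 0.47 over the 7 libraries (adjusted p = 0.0168, edgeR), under the fold threshold.

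Nudt19 hydrolyses coenzyme A and is known for its high level in kidney peroxisomes. It was at 95.3, 98.4, 199.1, 64.5 and 94.7 CPM in controls 1 to 5 and at 101.9, 192.3, 193.0, 183.6 and 231.1 CPM in DMM 1 to 5. Control 3 was above DMM 2, 3 and 4, and DMM 1 was within 4 CPM of control 2. Its log2 fold change was 0.71 (standard error 0.30, unadjusted p = 0.0351, adjusted p = 0.430 by edgeR's quasi-likelihood test) over 10 libraries and 1.18 (0.16, adjusted p = 0.00406) over 8.

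Nudt12, which cleaves NADH and other nicotinamide dinucleotides, was at 18.7, 20.01, 31.9, 17.2 and 20.3 CPM in controls 1 to 5 and at 15.2, 32.7, 35.4, 32.5 and 38.2 CPM in DMM 1 to 5. The kidneys formed a high set, made up of control 3 and DMM 2 to 5, and a low set with the rest, DMM 1 being the lowest of all. For Nudt12 the log2 fold change was 0.51 (standard error 0.25, adjusted p = 0.482 by edgeR's quasi-likelihood test) over 10 libraries and 0.86 (0.12, adjusted p = 0.00407) over 8. Crot, the carnitine octanoyltransferase that passes shortened chains on toward mitochondria, was at 152.2, 164.5, 293.8, 104.4 and 143.9 CPM in controls 1 to 5 and at 133.2, 288.7, 233.1, 271.6 and 328.0 CPM in DMM 1 to 5. Control 3 exceeded all DMM kidneys but DMM 5. Crot had a log2 fold change of 0.55 over 10 libraries and 0.99 over 8, with adjusted p values of 0.513 and 0.0112 by edgeR's quasi-likelihood test.

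Oxidases make the hydrogen peroxide that catalase removes. Cat, the catalase gene, had the highest median level of the 38 genes, 94.2 FPKM, and was at 213.4, 228.8, 412.0, 146.7 and 199.5 CPM in controls 1 to 5 and at 193.1, 375.6, 438.4, 268.4 and 549.0 CPM in DMM 1 to 5. Control 3 lay between DMM 2 and 3, DMM 4 was above the other 4 controls, and DMM 1 was among them. The log2 fold change was 0.60 (standard error 0.32, adjusted p = 0.513 by edgeR's quasi-likelihood test) over 10 libraries and 1.05 (0.23, adjusted p = 0.0285) over 8. Hao2, the kidney oxidase of long-chain hydroxy acids, was at 85.6, 81.5, 173.5, 43.3 and 62.4 CPM in controls 1 to 5 and at 57.1, 137.8, 231.2, 85.5 and 241.4 CPM in DMM 1 to 5. DMM 4 was level with control 1, so that the groups overlapped even over the 8 libraries. Its log2 fold change was 0.76 (standard error 0.45, adjusted p = 0.536 by edgeR's quasi-likelihood test) over 10 libraries and 1.35 (0.35, adjusted p = 0.0496) over 8.

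The amino acid oxidase genes Dao and Ddo and the sarcosine and pipecolate oxidase gene Pipox were called over neither set, with log2 fold changes of 0.41, 0.18 and 0.33 over 10 libraries and 0.73, 0.40 and 0.62 over 8. Over the 7 libraries Dao was called at 1.01 (adjusted p = 0.00616, edgeR) and Pipox at 0.89 (adjusted p = 0.00516), while Ddo, at 0.56, was not. Both calls need the omission of DMM 4 as well, which was at 46.6 CPM for Dao and 49.5 CPM for Pipox. Agps and Gnpat open the synthesis of ether lipids. Agps was at 131.8 to 188.6 CPM in the controls and at 140.2 to 195.3 CPM in DMM 1, 2, 3 and 5, but at 381.8 CPM in DMM 4, and its log2 fold change of 0.78 over the 8 libraries was 0.45 without DMM 4. Gnpat had log2 fold changes of 0.22 and 0.32.

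**Figure D3:**
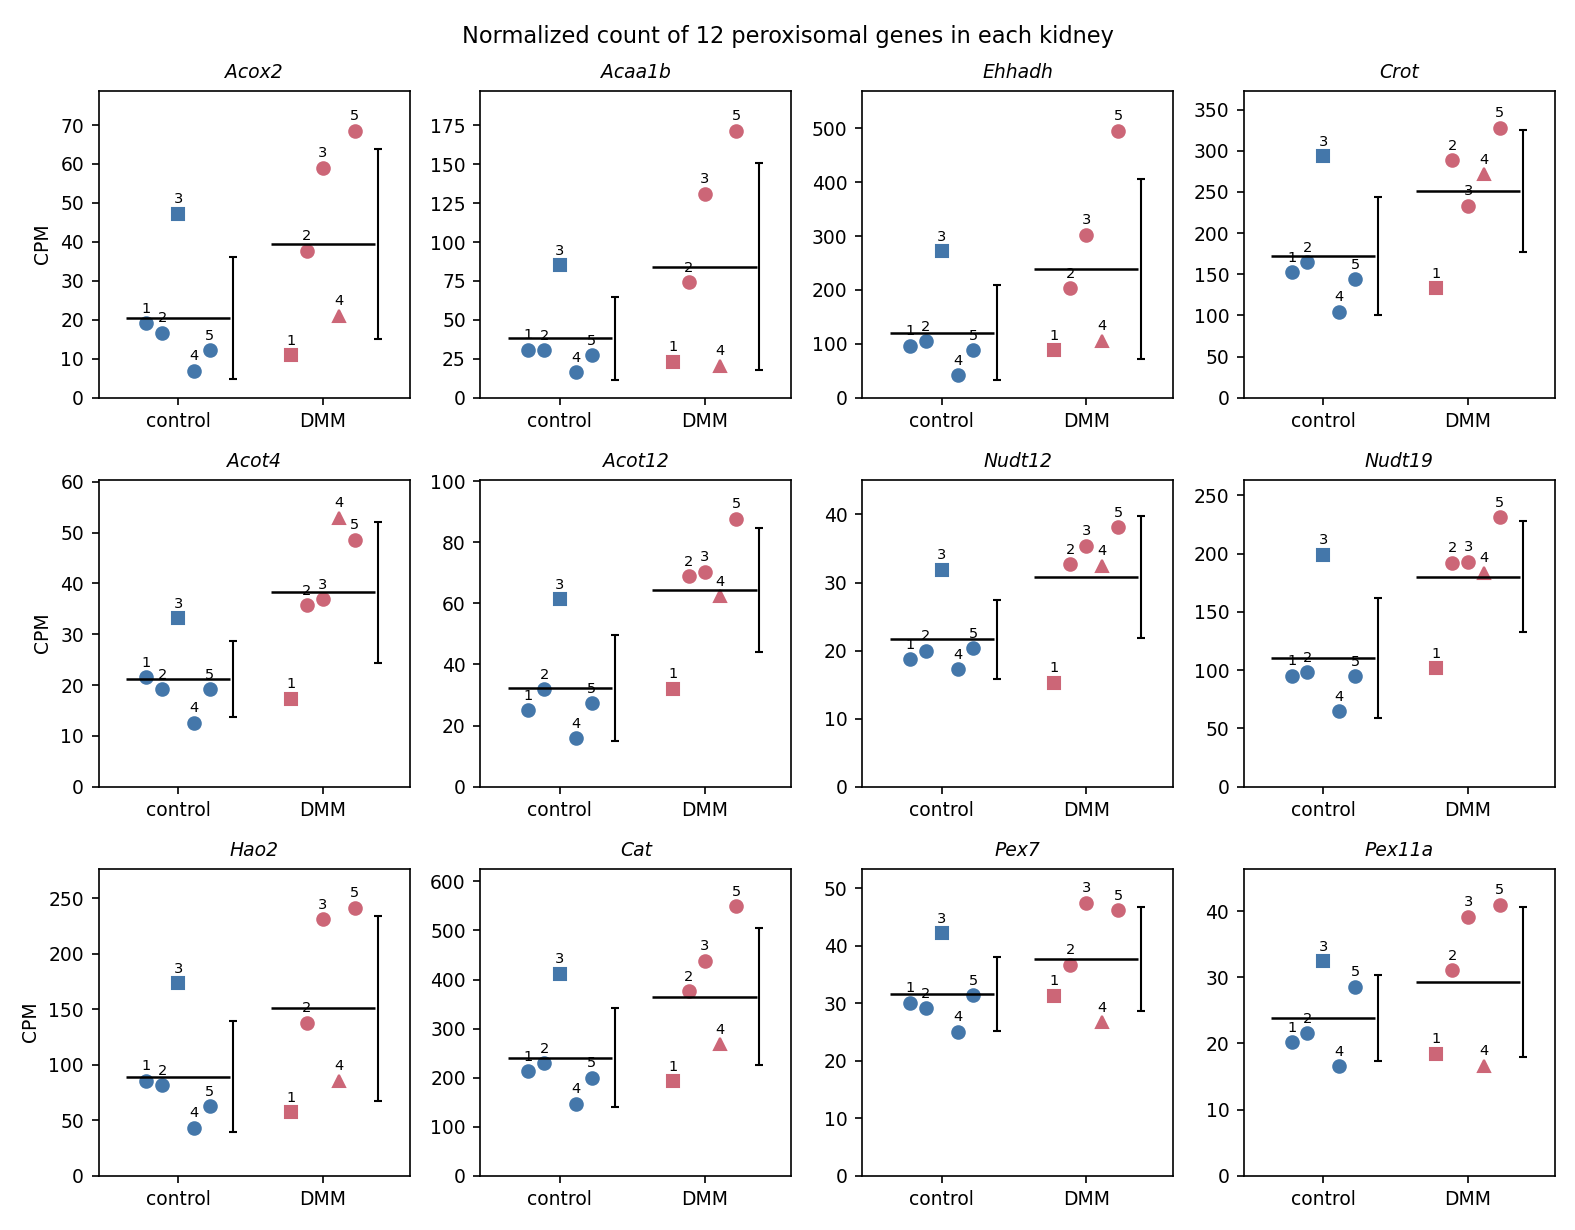
Normalized count (CPM) of 12 peroxisomal genes in each of 5 control and 5 DMM kidneys, with replicate numbers, group means (lines) and SDs (bars). In most panels control 3 lies among the high DMM kidneys and DMM 1 among the controls, as for Nudt19 with control 3 at 199.1 CPM and DMM 1 at 101.9 CPM.

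The 8 calls differed in how much they leaned on single kidneys. When each of the 8 libraries was left out in turn, Nudt19, Nudt12, Acot12, Acot4 and Crot were called every time, with adjusted p values of at most 0.0212, 0.0221, 0.0237, 0.0394 and 0.0495 by edgeR's quasi-likelihood test. Cat, Acox2 and Hao2 were called only when DMM 4 was the library left out (1129 genes higher among all, against 131 to 377 in the other omissions), and without control 5 their adjusted p values were 0.0976, 0.120 and 0.152 by the same test. The log2 fold changes of Cat, Acox2 and Hao2 moved less. Their lowest values in these omissions were 0.87, 1.52 and 1.15, against 1.05, 1.76 and 1.35 over the 8 libraries. Scaling by library size alone, which moved the median log2 fold change of all genes over the 8 libraries from 0.02 to -0.09, also left the first 5 called and not these 3, against 1.67% of all tested genes higher and 4.23% lower. DESeq2 called 11 enzymes higher over the 8 libraries, adding Ehhadh, Acaa1b and Agps, and it also called more of all genes, 3.74% of those it gave an adjusted p higher and 4.55% lower. A correction of the 8 libraries for GC content and transcript length, added after the data were seen, also called 11 enzymes higher, adding Ehhadh, Acaa1b and Ech1, against 3.79% of all tested genes higher and 4.80% lower.

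The deviation of DMM 4 correlated with both base composition and transcript length. Across the 38 genes, the Spearman correlation between GC content and the log2 CPM of DMM 4 minus the mean of the other DMM kidneys was -0.57, and across 16491 genes it was -0.49, while the correlation with transcript length was 0.47. In the other 9 libraries, each set against the rest of its own group, the correlation with GC content lay between -0.19 and 0.47 across the 38 genes and between -0.09 and 0.34 across the 16491. For DMM 1, 2, 3 and 5 the rest of the group includes DMM 4, so that their values are not independent of it. In the 5 controls alone it lay between -0.19 and 0.18 across the 38 genes and between -0.09 and 0.16 across the 16491. Genes are not independent replicates, and these are descriptions of the libraries. Agps, with a GC content of 41.5%, was at 1.02 relative to the mean of DMM 2, 3 and 5 on the log2 scale, and Acaa1b, with 58.9%, was lower, at -2.52. After each library's log2 CPM was corrected for GC content and length, DMM 4 was at -0.38 for the peroxins, 0.08 for the enzymes and 0.46 for their difference, relative to the control mean. For the peroxins DMM 2, 3 and 5 were then between 0.18 and 0.35, and DMM 4 was the lowest of the 10 kidneys before and after this step. The cause of its deviation was not tested.

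**Figure D4:**
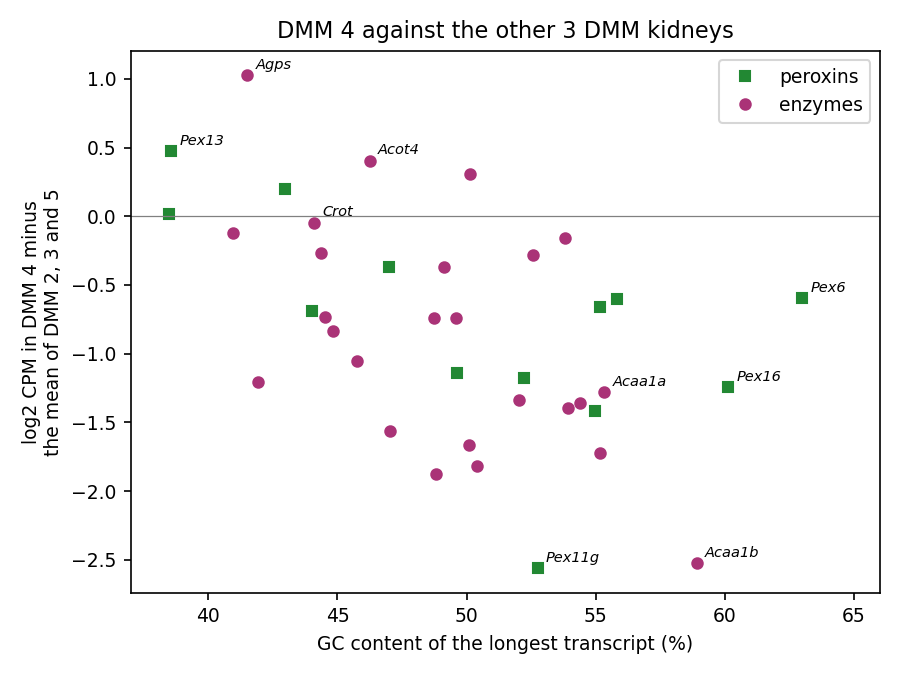
Log2 CPM in DMM 4 minus the mean of DMM 2, 3 and 5 for each of the 38 genes (vertical) against the GC content of its longest transcript in percent (horizontal), with peroxins as squares and enzymes as circles. Agps, Pex13, Acot4, Gnpat, Pex2 and Pex3 lie above 0 and all other genes below, down to -2.56 for Pex11g. Nudt12 and Hao2 are below 0 although their GC content is close to that of Agps.

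Markers of the proximal tubule, the cells richest in peroxisomes, were highest in the same kidneys as the enzymes. All 20 listed markers were tested, 10 were called higher and 0 lower over the 8 libraries, and 0 over all 10, with median log2 fold changes of 1.65 and 0.72. Over the 7 libraries 17 of these markers were called higher and 0 lower, with a median of 1.75. Among all tested genes 2.73% were called higher over the 8 libraries and 6.71% over the 7. The mean log2 CPM of the markers relative to the control mean was 0.20, 0.26, 1.62, -1.61 and -0.48 in controls 1 to 5, and -0.47, 1.29, 1.48, 0.73 and 1.82 in DMM 1 to 5. Control 3 and DMM 2, 3 and 5 were the highest kidneys in both the markers and the enzymes, and control 4 was the lowest in both. DMM 4 differed, since it was above controls 1, 2, 4 and 5 in the markers but among them in the enzymes, at -0.02.

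The summed level of the proximal tubule markers was 670.1, 692.4, 1699, 276.2 and 512.9 FPKM in controls 1 to 5 and 484.5, 1381, 1491, 995.5 and 1886 FPKM in DMM 1 to 5. Their most abundant gene was Cltrn, at a median of 150.3 FPKM, and none of the 20 was at a count of 0 in any library. The part of these markers in the differences of the enzymes was not tested.

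Of 12 markers of the loop of Henle, distal tubule and collecting duct, 11 were tested, and Pvalb was at 0 in some library. The mean log2 CPM of these 11, relative to the control mean, was highest in control 3 and DMM 2, 3 and 5, at 0.89, 0.65, 1.09 and 0.97. It was lowest in control 4, at -0.46, so that the match with the enzymes was not particular to the proximal tubule. Over the 8 libraries 5 of these markers were called higher, and over the 7 libraries 9. Their summed level was 1053, 898.5, 1459, 690.8 and 603.1 FPKM in controls 1 to 5 and 947.0, 1417, 1616, 581.9 and 1727 FPKM in DMM 1 to 5, with Umod the most abundant at a median of 815.4 FPKM. Of 16 leukocyte markers, 3 were called lower over the 8 libraries, and Cd79a was at 0 in some library. The leukocyte sum was 706.7, 835.5, 583.3, 615.1 and 781.2 FPKM in controls 1 to 5 and 754.0, 528.8, 394.7, 279.6 and 396.7 FPKM in DMM 1 to 5, with Lyz2 the most abundant at a median of 431.0 FPKM. Both sums thus placed DMM 1 among the controls.

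Of 10 fibroblast and myofibroblast markers, 3 were called lower over the 8 libraries and 6 over the 7 libraries. The 10 markers summed to 1002, 1447, 774.2, 2030 and 1378 FPKM in controls 1 to 5 and to 1747, 832.2, 608.5, 1148 and 663.5 FPKM in DMM 1 to 5, with Col1a1 the most abundant at a median of 293.1 FPKM. Control 4, the lowest kidney in the enzymes, was the highest in this sum, and DMM 3 the lowest. None of the 10 podocyte and endothelial markers or the 10 markers of tubular injury was called over the 8 libraries. Over the 7 libraries 1 marker of tubular injury was called lower, and 0 podocyte and endothelial markers were called. The most abundant genes of these lists were Podxl at a median of 61.6 FPKM and Spp1 at 8355 FPKM. All of these lists had 0 calls over the 10 libraries, and their part in the differences of the peroxisomal genes was not tested.

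Interferon response genes split the kidneys differently. Relative to the control mean, their mean log2 CPM was 0.16, -0.36, -0.24, 0.24 and 0.20 in controls 1 to 5 and -0.09, -2.67, -2.88, -3.40 and -3.21 in DMM 1 to 5, and 20 of 20 were called lower over the 8 libraries, against 0 over the 10, where all 20 were lower at an unadjusted p under 0.05. Bst2 was their most abundant gene, at a median of 349.4 FPKM. By these genes control 3 lay with the controls, unlike in the peroxisomal enzymes, and DMM 1 lay with the controls in both.

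Other lists of metabolism were placed beside the enzymes. Of 13 mRNAs of the mitochondrial genome, 12 were tested and 12 were called higher over the 8 libraries, with DMM 4 the highest kidney at 1.65 relative to the control mean and control 3 at 0.83. Of 23 PPAR target genes outside peroxisomes, 21 were tested and 7 were called higher over the 8 libraries, with a median log2 fold change of 0.996 over the 8 and 0.47 over the 10. Over the 7 libraries 13 of these genes were called higher, with a median of 1.17. Their list score was -0.21, -0.004, 0.75, -0.52 and -0.01 in controls 1 to 5 and -0.16, 0.66, 1.05, -0.13 and 1.34 in DMM 1 to 5, with the same 4 kidneys highest as in the enzymes, control 4 lowest in both, and DMM 1 and 4 among the controls. Slc27a2, the most abundant gene of this list, is also among the other peroxisomal genes described next.

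Peroxisomal genes outside the 38 gave a similar picture. Of 53 such genes 49 were tested, and over the 8 libraries 9 were called higher and 1 lower, with a median log2 fold change of 0.45, while over the 10 libraries 0 were called and the median was 0.26. Over the 7 libraries 50 were tested, 20 were called higher and 1 lower, and the median was 0.54. Of all tested genes, 2.73% were called higher and 3.56% lower over the 8 libraries, and 6.71% and 7.61% over the 7. The one called lower was Xdh, the xanthine dehydrogenase and oxidase of purine breakdown. It was at 180.5, 148.3, 151.2, 205.5 and 213.7 CPM in controls 1 to 5 and at 172.8, 69.8, 91.5, 81.8 and 91.9 CPM in DMM 1 to 5. DMM 2 to 5 were below all controls, DMM 1 was within the control range, and control 3 was among the other controls. The log2 fold change of Xdh was -0.82 (standard error 0.23, adjusted p = 0.378 by edgeR's quasi-likelihood test) over 10 libraries and -1.16 (0.15, adjusted p = 0.00363) over 8.

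Among those called higher were Abcd3, an importer of fatty acids into the peroxisome, the epoxide hydrolase Ephx2, the NADP-linked isocitrate dehydrogenase Idh1 and the membrane protein gene Mpv17l. Their log2 fold changes over the 8 libraries were 0.80, 0.81, 0.65 and 2.08, and over the 10 libraries 0.53, 0.47, 0.34 and 1.09.

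The 8 called genes lie on 8 chromosomes of mm10 and are not neighbours: Nudt19 on chromosome 7 (35547185 to 35556304), Nudt12 on 17 (58999618 to 59013372), Acot12 on 13 (91741512 to 91786148), Acot4 on 12 (84038379 to 84048601), Crot on 5 (8966033 to 8997324), Cat on 2 (103453849 to 103485160), Acox2 on 14 (8225511 to 8259353) and Hao2 on 3 (98874521 to 98893239). Of the 38 genes, 20 overlap a gene on the opposite strand and 8 share stretches of 50 bases with another gene, among them Acot4, with 2.54% of its stretches in Acot6. A gene on the same strand overlaps 8 of the 38, among them Crot, Acot4 and Acot12, and counting by strand would not separate these. Nudt19, Nudt12, Acot12, Acot4 and Crot are among the 20, and whether the counting took strand into account is not given in the sources used here, so that reads from their antisense partners cannot be told apart. Cat, Acox2 and Hao2 have no such partner in the annotation.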

How the data were processed

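The sample labels name TRIzol for RNA extraction and the paper's methods name an extraction kit. Reads were aligned to mm10; the submitters' processing notes list HISAT2 2.0.5. The authors deposited the count of reads per gene, without normalization, for each of the 10 libraries, and FPKM values, which they divided by gene length and library size. The authors' deposited group means, a signal of size-factor-scaled counts, served only to find the weight of each library. Fold changes and p-values of the authors' own comparison are also in the table and were not used. Per-sample columns without use number 0. Counts were filtered by filterByExpr, scaled by TMM and tested by edgeR 4.0.16 (quasi-likelihood F test, Benjamini-Hochberg over all tested genes), with DESeq2 1.42.0 as an alternative. Class and list means are averages over genes of log2 CPM (prior count 2). The 38 genes, the lists and the library sets were chosen with earlier results of these data known. Values in every mouse were given for genes called over 10 or 8 libraries, and for the 3 genes of each class with the largest log2 fold change and the 1 with the highest FPKM. The steps were tested on simulated counts.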

Additional observations from a re-analysis of the deposited data

Results flagged for a closer look

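Among 102 groups of 5 values (CPM of each gene, class means and list means in either group), 17 had a highest or lowest kidney far from the other 4, by Dixon's ratio with a critical value of 0.71. For independent, normally distributed values chance gives about 1 in 20. The groups here share the same kidneys, so that the 17 cannot be judged against that rate. Of the 17, 12 were in control 3, 3 in DMM 4 and 2 in DMM 1. Control 3 was the highest control for Pex3 at 27.9 CPM, Ehhadh at 271.6, Acaa1b at 85.1, Scp2 at 318.1, Amacr at 78.4, Phyh at 153.3, Pecr at 110.6, Nudt12 at 31.9, Nudt19 at 199.1, Agps at 188.6 and Gnpat at 88.9 CPM, and for the mRNAs of the mitochondrial genome, 0.83 above the control mean in log2 CPM. DMM 4 was the lowest DMM kidney for Pex14 at 11.8 CPM and Acaa1a at 48.2 CPM, and the highest for Agps at 381.8 CPM. DMM 1 was the lowest DMM kidney for Nudt12 at 15.2 CPM and the highest for the interferon response genes, at -0.092 relative to the control mean. The causes were not tested.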

How the results depend on the processing

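Of 208 log2 fold changes of the 13 genes given in every mouse, under 16 alternatives each, 20 passed the threshold, all over the 8 or the 7 libraries. Genes called higher and lower, 0 and 0 over the 10 libraries by edgeR, were 14 and 36 with DESeq2, 452 and 590 over the 8 libraries and 1129 and 1281 over the 7, and between 0 and 50 and between 0 and 436 when each library was left out in turn, the highest without DMM 1. The mean difference of the peroxins was 0.06 over the 10 libraries, 0.34 over the 7, -0.02 with library size alone, and -0.01 to 0.20 without single libraries. That of the enzymes was 0.46 over the 10 libraries, 1.02 over the 7, 0.37 with library size alone, and 0.31 to 0.64 without single libraries. The enzyme minus peroxin difference lay between 0.28 and 0.68 in all 21 alternatives. Genes of the 38 called over the 8 libraries, 8, were 5 with library size alone, 11 with DESeq2 or a correction for GC content and length, and 5 to 20 without single libraries, 20 being without DMM 4. With the replicate number as a block (replicate block), 0 genes were called higher and 0 lower, and the median log2 fold change was 0.09 for the peroxins and 0.34 for the enzymes. The numbers do not pair the samples: deviations of same-numbered kidneys correlated at -0.06, 0.08, 0.34, 0.12 and -0.22, and 3 of 10 samples correlated best with their own number. The causes of these differences were not tested. With 5 mice per group, the SD between kidneys limits what can be called, and intervals for counting error would not cover it.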
